A study of Mus musculus with 19 samples.

Results

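Smooth muscle alpha-actin (Acta2) is a main contractile protein of the arterial wall, and its transcript differed 21.8-fold between the richest and the poorest of the 19 abdominal aorta libraries of the series. A high and a low class of libraries were formed from this value, the 6 with the highest Acta2 CPM (the unstranded counts as a share of all counts of the library in genes, scaled to a fixed total) and the 6 with the lowest, so that 12 of 19 libraries entered and 7 lay between. Since Acta2 chose the classes, every difference between them is given as a description without a test. The other genes were compared on CPM scaled by the TMM method, which balances the composition of the libraries, and "without overlap" below means that the lowest library of one class lay above the highest of the other.

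The mice were male Apoe-/- animals on a C57Bl/6J background, which lack apolipoprotein E, and all of them received angiotensin II (AngII) from a subcutaneous osmotic pump implanted at 8 to 10 weeks of age. Control mice (n = 5) were not irradiated, D-3 IR mice (n = 7) received 1 Gy of X-rays over the whole body 3 days before the pump, and D+1 IR mice (n = 7) received it 1 day after. No aorta without AngII and none with intact Apoe was analysed here, and the day of infusion on which these aortas were taken is not given in the sources used here. Each library came from poly(A) RNA of a piece of abdominal aorta, so the spread between libraries includes the spread between these pieces.

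Vascular smooth muscle contracts when calcium signals activate myosin light chain kinase, which lets smooth muscle myosin pull on actin filaments anchored in dense bodies and at focal adhesions. The genes of this apparatus are switched on together by serum response factor (SRF) and its partner myocardin, which bind a short element named the CArG box. Smooth muscle cells of diseased arteries can lower these genes, and a piece of aorta may also hold more or less of the surrounding fat, nerve and adventitia. In bulk tissue, fewer smooth muscle cells and less contractile RNA in each cell cannot be told apart.

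The high class held 1 control, 4 D-3 IR and 1 D+1 IR library. Acta2 stood at 17035 CPM in control 6 and at 11700 CPM in D+1 IR 17, while D-3 IR 11, D-3 IR 16, D-3 IR 13 and D-3 IR 14 had 14112, 13891, 11980 and 10087 CPM. The low class held 1 control, 1 D-3 IR and 4 D+1 IR libraries, with 6249 CPM in D-3 IR 12, 3339 in D+1 IR 2, 2982 in control 4, 1858 in D+1 IR 20, 1561 in D+1 IR 1 and 782 in D+1 IR 3. The class means were 13134 ± 2426 and 2795 ± 1935 CPM (SD, n = 6 each), a ratio of 4.70. The values ran on without a gap at either border: the nearest libraries outside were control 8 at 9432 CPM, just under the high class, and D+1 IR 19 at 6359 CPM, just above the low class.

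The classes were not balanced for a number that opens the names of the libraries, 61 in 16 of them and 41 in D+1 IR 1, D+1 IR 2 and D+1 IR 3, and what this number marks is not given in the sources used here. All 6 high libraries carried 61, whereas the low class held 3 libraries of each number, among them all 3 that carried 41. The classes were therefore also formed within the 16 libraries of number 61, and values from them are given beside the results that they change. Single libraries stood apart in other ways: control 6 had 2153 CPM of summed white adipocyte markers against 16513 to 31354 in the rest of its class, D+1 IR 17 had 7105 CPM of summed sympathetic neuron and adrenal medulla markers against 123 to 150 in the others, and D+1 IR 3 had 117 CPM of adrenal cortex markers against 3.50 to 5.21. Depth was 27407579 to 79066549 counts in genes in the high class and 25839001 to 97083681 in the low class.

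**Figure D1:**
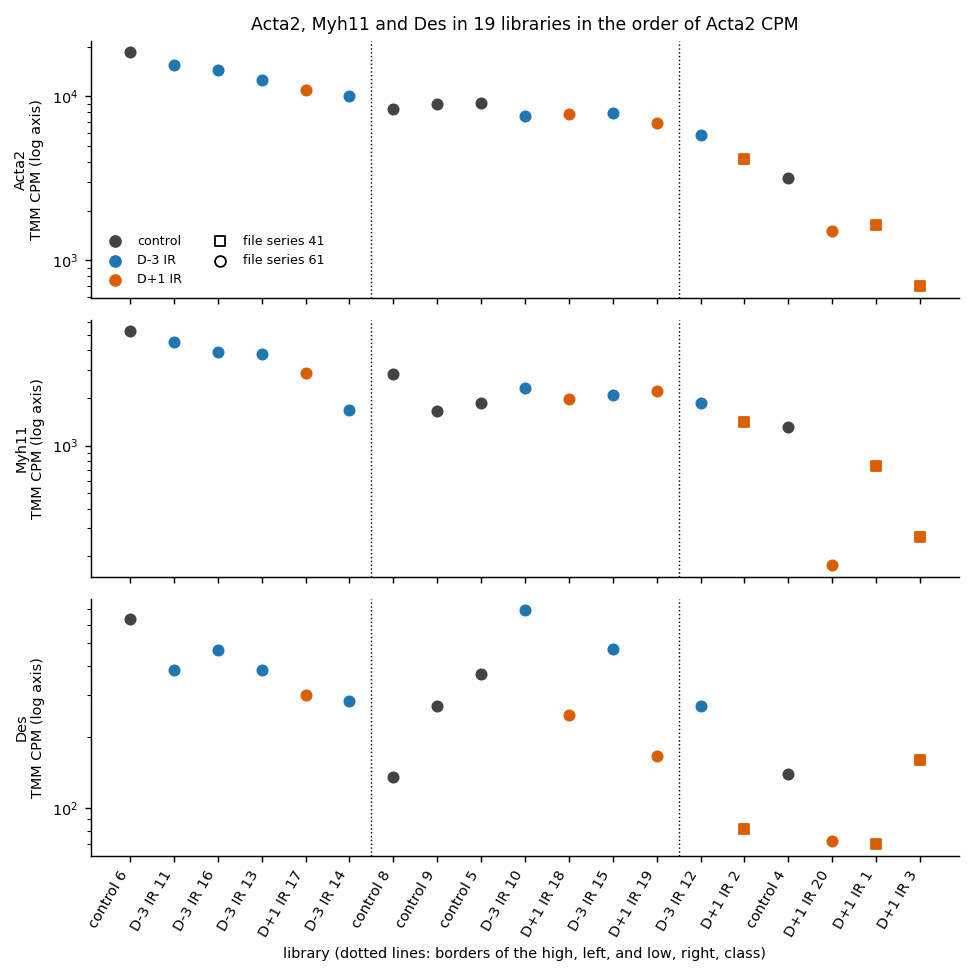
TMM CPM of Acta2, Myh11 and Des in each of the 19 libraries (log axis), ordered by Acta2 CPM over total counts. Colours give the irradiation group and marks the library number. On this scale Acta2 is 18521 CPM in control 6, first in order, and 698 in D+1 IR 3, last. The fall follows from the ordering, and D+1 IR libraries fill 4 of the 6 lowest places.

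The other defining markers of smooth muscle mostly followed, so the label of the classes held. Myh11, smooth muscle myosin heavy chain, had a lowest, median and highest value of 1678, 3842 and 5262 CPM in the high class and of 176, 1020 and 1851 CPM in the low class. The classes overlapped for Myh11 in 1 high library, D-3 IR 14, and the mean difference was 2.30 on the log2 scale, with SDs of 0.59 and 1.39. Desmin (Des), the muscle intermediate filament protein, ran from 285 to 631 CPM (median 384) against 70.2 to 270 CPM (median 110), a difference of 1.76. Desmin did not overlap on the TMM scale, but its classes did on plain CPM, where the low class reached 290. Ranking by TMM-scaled Acta2 chose the same 6 and 6 libraries, ranking by Myh11 chose 5 and 5 of them, and ranking by Des chose 4 and 5. The middle libraries D-3 IR 10 and D-3 IR 15 ranked 1 and 3 for Des, at 690 and 472 CPM. They also had the highest sums of skeletal muscle markers, 9294 and 3230 CPM, whereas control 6, ranked 2 for Des, had 191. The part of skeletal muscle RNA in the Des values was not tested.

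Among the irradiation groups, which the labels and not Acta2 define, D-3 IR aortas had more Acta2 RNA than D+1 IR aortas. Acta2 averaged 9450 ± 5001 CPM over 5 control aortas (SD), 10370 ± 3069 over 7 D-3 IR aortas and 4812 ± 4047 over 7 D+1 IR aortas. The mean log2 CPM of D-3 IR exceeded that of D+1 IR by 1.58 (two-sided exact permutation test, p = 0.0157, adjusted p = 0.0472 over 3 pairs). D+1 IR was lower than control by a log2 difference of -1.31 (exact permutation p = 0.0960, adjusted p = 0.144) and D-3 IR was above control by 0.27 (exact permutation p = 0.530, adjusted p = 0.530), and neither passed. The call was close to the threshold: it was lost with TMM scaling (adjusted p = 0.0524) and on linear CPM (adjusted p = 0.0507), and on leaving out any 1 of 11 of the 14 libraries of these groups (the highest adjusted p was 0.0944), all by exact permutation. The size changed most without the libraries of number 41, when 7 D-3 IR and 4 D+1 IR libraries differed by 0.79 (exact permutation p = 0.164, adjusted p = 0.491). In the fit over all 17617 genes (edgeR quasi-likelihood test, Benjamini-Hochberg adjustment), Acta2 differed by 1.14 on the log2 scale (SE 0.53, adjusted p = 0.434), Myh11 by 1.07 (SE 0.52, adjusted p = 0.441) and Des by 1.43 (SE 0.40, adjusted p = 0.409). That fit called 0 genes in each of the 3 comparisons of groups, 0.00% of those tested.

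Of the 17616 genes other than Acta2, 1080 (6.13%) lay without overlap higher in the high class and 339 (1.92%) lower. Of the 24 measured genes of the contractile apparatus 18 were among the higher genes, as were 15 of 26 genes of its anchors, while the 12 largest differences in the other direction included Lipe and Dgat1 of fat metabolism. The median difference over all genes was -0.03 on the log2 scale, with 8524 genes above 0 and 9092 below. Among the 1080 genes the median difference was 1.12 (0.20 to 4.13), and among the 339 genes it was -1.16 (-3.33 to -0.21). On plain CPM without TMM scaling the split was 837 and 650. Within the 16 libraries of number 61, where the low class gained 3 libraries from the middle, 278 genes (1.58%) were higher without overlap and 158 (0.90%) lower, of which 254 and 150 were among the 1080 and 339. The part of the library number in the other genes was not tested.

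The contractile apparatus was higher as a whole. All 24 measured genes of this list had a positive difference, 18 without overlap, with a median of 1.84 against -0.03 over all genes. Calponin (Cnn1, chr9:22099216-22109630 in GRCm38), which binds actin and restrains myosin, ran from 1314 to 2381 CPM (median 1781) in the high class and from 108 to 854 (median 265) in the low class, a difference of 2.69. The classes were separate, with a gap between 854 and 1314 CPM. Regulatory myosin light chain Myl9, the target of myosin light chain kinase, ran from 1936 to 5076 CPM (median 2908) against 309 to 1593 (median 835). The kinase itself (Mylk) differed by 1.59, its relative Mylk4 by 3.37, and the myosin phosphatase subunit Ppp1r12b, which reverses its action, by 2.23. The tropomyosins Tpm1 and Tpm2, which line the actin filament, differed by 1.86 and 1.83, smoothelin (Smtn) by 1.86, leiomodin (Lmod1) by 2.01 and the shared essential light chain Myl6 by 1.44. An antisense gene covers 16% of the exonic bases of Smtn, whose value is therefore less certain. Myh11, Csrp2, Myh10, Tpm4, Myl12a and Ppp1r12a overlapped. Within the 16 libraries of number 61 the median was 1.16, with 10 of 24 genes without overlap.

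Tagln (transgelin, SM22), a further member, needs its own reading because the counting left out reads that fall on overlapping genes of both strands. The levels in this paragraph are plain CPM without TMM scaling, unlike those of the neighbouring genes. In the unstranded counts Tagln had only 29.8 to 55.8 CPM (median 43.2) in the high class and 4.72 to 22.5 CPM (median 8.64) in the low class. An annotated antisense gene, Gm48529, covers 62% of its exonic bases. When the counts of both strand columns were added, Tagln reached 5876 to 11265 CPM (median 7164) against 593 to 3874 (median 1407). The log2 difference was then 2.33 on plain CPM, beside 2.14 in the unstranded counts. The reads of Acta2 split evenly between the strand columns, 49.9% on the first in the high class, so Tagln and its antisense partner cannot be told apart. Integrin-linked kinase (Ilk) lost reads in the same way to Taf10, which covers 77% of its exonic bases, and with strands added it ran from 336 to 430 CPM against 138 to 253.

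The promoters of these genes were searched for the CArG box, which here means CC, 6 bases that are each A or T, and GG, in the 250 bases before each start (RefSeq, GRCm38.p6). The box reads the same way on both strands, so 1 search covers both. Of 51 promoters of the contractile and Z-disc lists, which belong to 40 of 50 genes, 8 (15.7%) held it, against 192 of 15938 promoters of all genes (1.20%). Separate starts of Ldb3 shared the same box and were counted apart. By gene, 7 of 40 (17.5%) held a box against 181 of 12511 of all genes (1.45%). Among genes without overlap, it was in 21 of 1054 promoters of the higher genes (1.99%) and in 2 of 331 of the lower genes (0.604%). It was in 0 of 15 promoters, from 8 genes, of the 12 higher genes with the largest differences. The following stretches are shown because they hold the element in genes of the contractile apparatus, its anchors and its regulator, with the box in capitals, read 5′ to 3′ on the strand of the gene. Myl9 is at chr2:156775273-156775342 on the plus strand, Myl6 at chr10:128493020-128493089 on the minus strand, Cnn2 (calponin 2) at chr10:79988514-79988583 on the plus strand, Ldb3 at chr14:34588677-34588746 on the minus strand, Vcl at chr14:20929148-20929210 on the plus strand, and Srf, with 2 boxes, at chr17:46556185-46556274 on the minus strand.
Myl9: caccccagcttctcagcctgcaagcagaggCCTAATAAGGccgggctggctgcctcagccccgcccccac
Myl6: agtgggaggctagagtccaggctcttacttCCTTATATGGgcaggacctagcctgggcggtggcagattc
Cnn2: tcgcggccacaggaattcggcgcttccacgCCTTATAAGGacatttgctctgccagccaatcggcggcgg
Ldb3: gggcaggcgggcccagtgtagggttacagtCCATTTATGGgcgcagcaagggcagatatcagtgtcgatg
Vcl: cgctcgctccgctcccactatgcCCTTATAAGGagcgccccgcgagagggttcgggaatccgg
Srf: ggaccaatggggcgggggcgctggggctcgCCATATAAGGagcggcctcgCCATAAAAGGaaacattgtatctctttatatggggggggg

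The window of Acta2 itself held no such box. A looser search, chosen after this was seen, allowed 1 C or G among the 6 middle bases, and found boxes that begin 84 and 34 bases before the start of Acta2, at chr19:34255374-34255487 on the minus strand, shown with both in capitals.
Acta2: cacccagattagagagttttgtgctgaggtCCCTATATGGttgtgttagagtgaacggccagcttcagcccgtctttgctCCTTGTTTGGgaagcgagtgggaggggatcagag
The looser box was in 14 of the 51 promoters of both lists (27.5%) and in 1270 of 15938 promoters of all genes (7.97%). It did not separate the classes of genes by direction, with 94 of 1054 promoters of the higher genes (8.92%) and 39 of 331 of the lower genes (11.8%). These are matches of letters and not tested binding sites.

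The anchors of the actin filaments were also higher. In the Z-disc and dense body list 24 of 26 genes were above 0 and 15 lay without overlap, with a median of 1.82 (1.06 and 4 genes in the 16 libraries of number 61). Pdlim3, a PDZ and LIM domain protein that binds alpha-actinin, ran from 203 to 455 CPM (median 340) against 19.6 to 144 (median 60.4), a difference of 2.57. The small heat shock protein Hspb7 differed by 2.54 and Ldb3 (cypher) by 2.42, both without overlap. Xirp1 (3.05) and vinculin (Vcl, 2.33) overlapped, vinculin, which shares 26% of its exonic bases with the antisense gene Ap3m1, because D-3 IR 14 had 45.5 CPM. For integrins and focal adhesion, 13 of 23 genes lay without overlap, with a median of 1.33. Itga8, the alpha chain of the integrin that smooth muscle uses to bind nephronectin, ran from 665 to 2032 CPM (median 1378) against 18.6 to 403 (median 191), and Npnt, nephronectin itself, from 752 to 2098 (median 1389) against 19.5 to 582 (median 153). Their differences were almost equal, 3.33 each, and Itga9 (2.68) and Itga5 (2.28) followed. Within the 16 libraries of number 61 this list had 1 gene without overlap and a median of 0.87.

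In the dystrophin and sarcoglycan complex, which ties the cytoskeleton to the basement membrane, 8 of 19 genes lay without overlap and 17 were above 0, with a median of 0.78 (3 genes and 0.52 in the 16 libraries of number 61). Dystrophin (Dmd), the large protein that links actin to this complex, ran from 59.4 to 137 CPM (median 116) against 8.97 to 49.2, a difference of 2.09. Sgca (2.07) and Dtna (2.07) were also apart. The basement membrane list had 22 of 23 genes above 0 and 7 higher without overlap, with a median of 1.41, but in the 16 libraries of number 61 none was higher without overlap and the median was 0.77. Type IV collagen chains Col4a5 (2.97) and Col4a6 (2.90) and Col18a1 (2.66) came next after Npnt. Lamb1 went the other way, from 27.0 to 96.6 CPM in the high class and from 104 to 171 in the low class, a difference of -0.96.

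**Figure D2:**
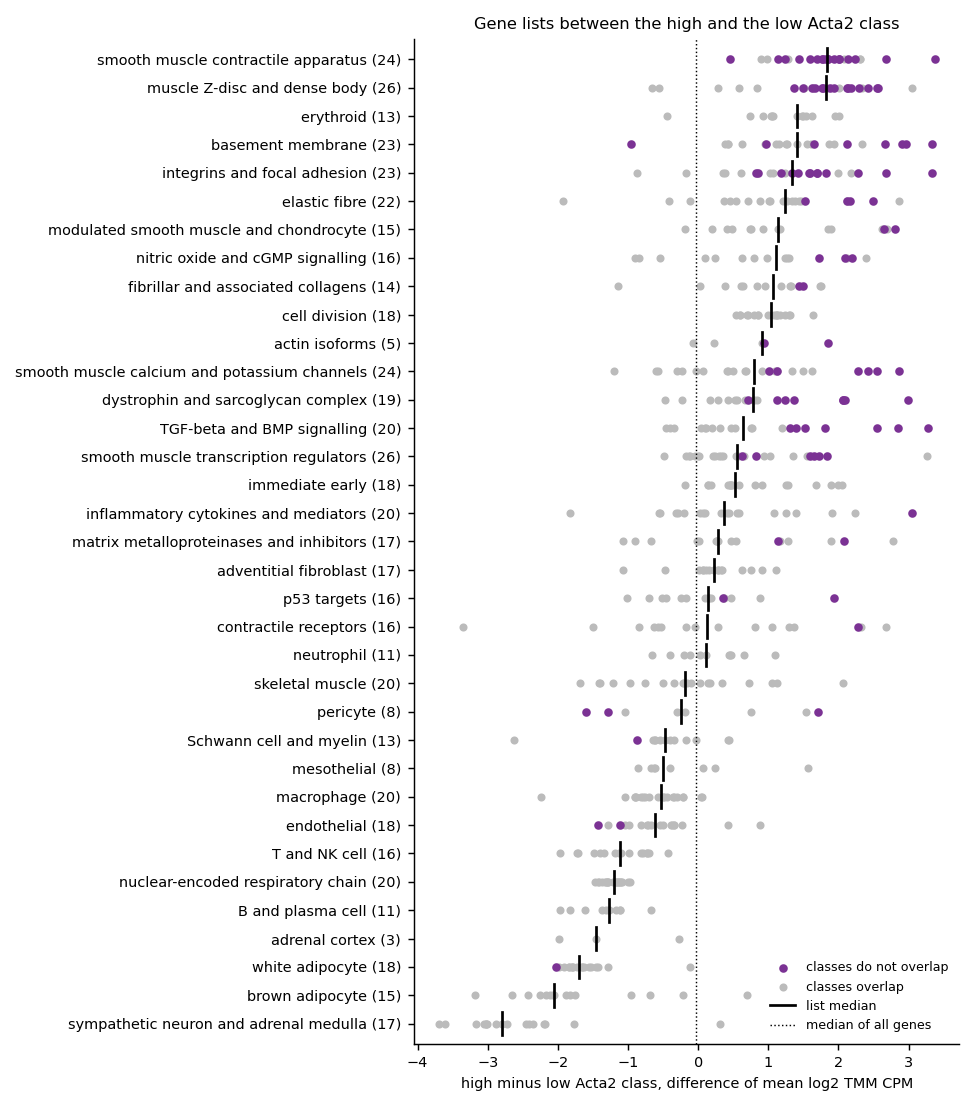
High minus low difference of mean log2 TMM CPM for each gene of the lists (points), with the list medians and the genes without overlap marked. Contractile (1.84) and Z-disc (1.82) lists have the highest medians of the muscle lists, and white (-1.70) and brown (-2.06) adipocyte lists lie below 0.

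Elastin and the other matrix genes were higher in most but not all of the high libraries. Elastin (Eln), the elastic protein of the media, ran from 14539 to 49282 CPM (median 32582) in the high class and from 445 to 18022 CPM (median 6053) in the low class, a difference of 2.86 with overlap. In the elastic fibre list 19 of 22 genes were above 0 and 4 without overlap, with a median of 1.24. Fibronectin (Fn1) ran from 4461 to 13460 CPM (median 10629) against 260 to 4420 (median 1678), and so was just separate. Of 14 fibrillar and associated collagens, 13 were above 0 with a median of 1.07, but only Col6a1 and Col6a2 did not overlap. Single libraries weighed on this value, and the collagen median was 0.47 without D+1 IR 3 and 1.45 without D+1 IR 20. The 16 libraries of number 61 gave a median of 0.65 with 1 gene without overlap for the elastic fibre list, and of 0.39 with 0 genes for the collagens.

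Genes of TGF-beta signalling, which drives contractile and matrix genes, included some large differences beside small ones. Of 20 genes 17 were above 0 and 7 without overlap, with a median of 0.63. The ligand Tgfb2 had a median of 136 CPM in the high class and of 25.5 CPM in the low class, where it reached at most 55.5, a difference of 2.55 without overlap. The receptor Tgfbr1 differed by 1.52 and the feedback inhibitor Smad7 by 1.81, both without overlap, while the receptor Tgfbr2 differed by -0.40 with overlap. The target gene Ccn2, a matricellular protein, ran from 1965 to 3607 CPM (median 2868) against 73.9 to 1112 (median 390), a difference of 2.85, although an antisense gene covers 23% of its exonic bases. Within the 16 libraries of number 61 this list had 2 genes without overlap and a median of 0.31.

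**Figure D3:**
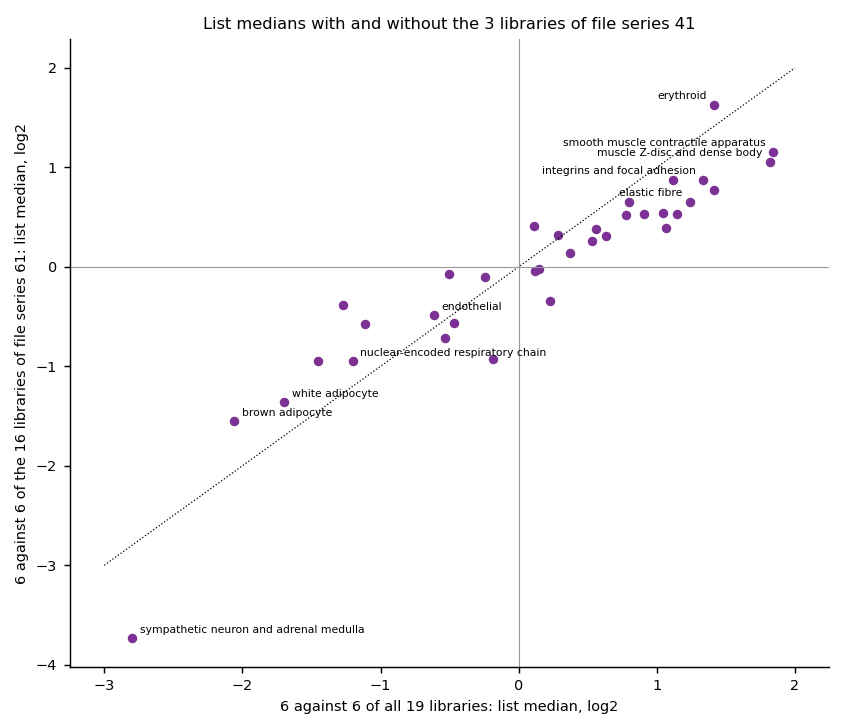
Median high minus low difference of each list over all 19 libraries against that within the 16 libraries of number 61, both on the log2 scale. The contractile median goes from 1.84 to 1.16 and that of white adipocyte markers from -1.70 to -1.36.

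Ion channels, receptors and transcription regulators showed that the class did not carry all smooth muscle genes alike. Kcnmb1, the beta subunit that makes the large calcium-activated potassium channel of smooth muscle sensitive to calcium, ran from 123 to 319 CPM (median 212) against 7.81 to 80.2 (median 34.2), a difference of 2.86. Kcnab1 (2.54), the calcium channel subunit Cacnb2 (2.42) and junctophilin Jph2 (2.28) came next in a list with 6 of 24 genes without overlap and a median of 0.80 (2 genes and 0.65 in the 16 libraries of number 61). In the list for nitric oxide and cGMP signalling, a pathway that relaxes smooth muscle, 3 of 16 genes lay without overlap with a median of 1.12 (0 genes and 0.87 in the 16 libraries). Of the 16 contractile receptors 8 were above 0 and the median was 0.12, which turned to -0.04 in the 16 libraries and to -0.02 without control 4. P2rx1, an ATP-gated channel, was the 1 without overlap, at 99.1 to 288 CPM against 8.39 to 95.5. This share of 6.25% was near that of all genes, 6.13%. The angiotensin receptor genes went in opposite directions, Agtr1b by 2.32 and Agtr1a by -1.50, both with overlap, as did Htr2a (2.68) and Chrm2 (-3.35). Agtr1a and Chrm2 were high where markers of sympathetic neurons and adrenal medulla were: in D+1 IR 17, the high library with a marker sum of 7105 CPM, Agtr1a had 76.4 and Chrm2 24.8 CPM, and in the other 5 high libraries, with sums of 123 to 150, Agtr1a had 1.94 to 5.45 and Chrm2 0 to 0.115 CPM. The part of nerve and adrenal RNA in these receptor values was not tested.

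Of 26 transcription regulators 20 were above 0 and 6 lay without overlap, with a median of 0.56 (3 genes and 0.38 in the 16 libraries of number 61). Myocardin (Myocd), the partner of SRF, had 7.55, 40.0 and 57.3 CPM as its lowest, median and highest values in the high class and 0.795, 3.95 and 11.7 CPM in the low class. Its difference of 3.26 was the largest of the list, but the classes overlapped at their ends. Srf differed by 1.03, also with overlap. Foxc2 (1.84), Tead3 (1.72), which partners YAP on DNA, Gata6 (1.65), Hey2 (1.60) and Yap1 (0.83) were separate. Klf4 (0.30) and Klf5 (-0.48), factors that oppose the contractile state, overlapped widely.

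The 12 genes with the largest positive difference among those without overlap and with at least 10 CPM in the high class were mostly not genes of the contractile lists. They were Ereg (4.13), a growth factor of the EGF family, Hspa1b (3.74), Bdnf (3.74), Nptx2 (3.60), Hspa1a (3.59), Ihh (3.52), Ccn3 (3.51), AC161438.1 (3.45), Myoz2 (3.39), Mylk4, Itga8 and Npnt. Ereg ran from 11.3 to 25.7 CPM (median 15.5) against 0 to 4.75 (median 1.32). Ccn3, a matricellular protein of the CCN family, was the most abundant of them, at 1057 to 4272 CPM (median 2547) against 20.0 to 762 (median 239). Bdnf, a neurotrophin, ran from 11.1 to 31.7 CPM against 0 to 6.41, and Ihh (Indian hedgehog) from 4.40 to 17.2 against 0.207 to 4.35. The heat shock genes Hspa1a and Hspa1b are near-identical copies, and the counting left out reads that fit more than 1 place. For both genes 1 library, D+1 IR 17, set the upper end, with 2678 CPM of Hspa1b against 70.3 to 233 in the rest of the high class. Within the 16 libraries of number 61 none of these 12 genes lay without overlap, and their differences were 1.31 to 2.15.

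**Figure D4:**
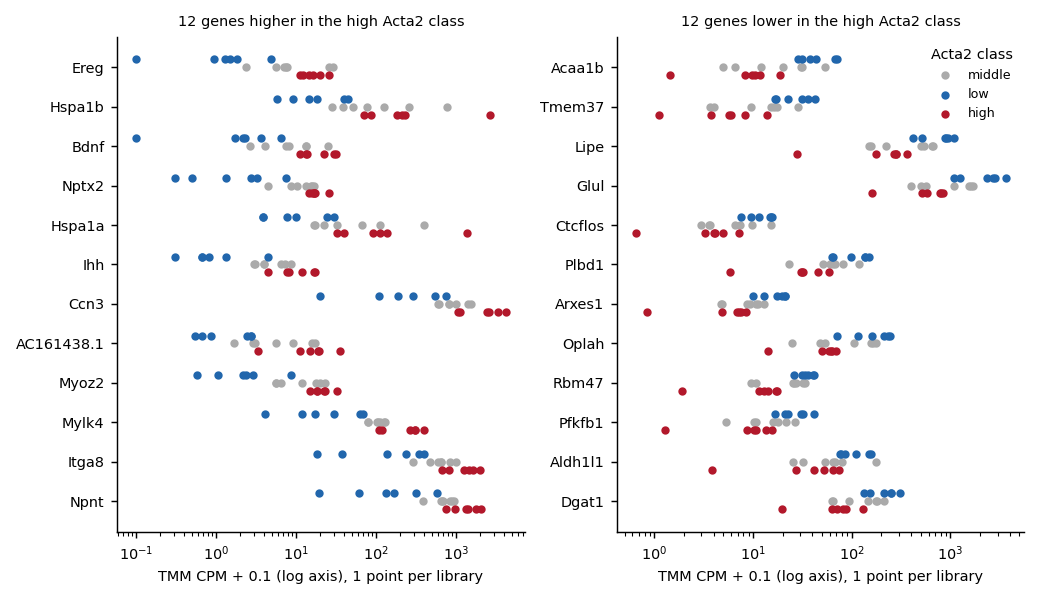
TMM CPM (log axis, with a small constant added) of the 12 genes with the largest difference in each direction. Each of the 19 libraries is 1 point, coloured as high, middle or low class. D+1 IR 17 stands above the rest for Hspa1b (2678) and control 6 below the rest for Lipe (27.9).

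Genes most like Acta2 over all 19 libraries were found by Spearman's rho with Acta2 CPM. Among the 10 highest were Tgfb1i1 (0.986), Emp2 (0.981), Wfdc1 (0.977), Dstn (0.975), Rcn2, Rnd3 and Tead3 (0.970 each), Efhd1 (0.968) and Chmp4c (0.967). Tgfb1i1 (chr7:128246812-128255699) encodes Hic-5, a focal adhesion protein of smooth muscle, and ran from 172 to 314 CPM (median 234) in the high class and from 34.7 to 146 (median 85.9) in the low class. Its Pearson's r on the log2 scale was 0.976, 0.953 without the 2 libraries farthest from the median of Acta2, and its rho was 0.976 in the 16 libraries of number 61. Destrin (Dstn), which severs actin filaments, ran from 1078 to 2297 CPM (median 1654) against 153 to 663 (median 414). All 10 genes lay without overlap in the 16 libraries too, with a median difference of 1.36. Those 16 libraries were among the 19 that picked these genes, so neither this nor the rho there is a separate check. These correlations are over libraries that share 1 scaling and the same tissue pieces, and the 10 genes were picked from 17616 for this value.

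The actins can be set side by side per kilobase of exon. The median of Acta2 was 6169 CPM per kb in the high class and 1094 in the low class. Cytoplasmic Actb was next, 1275 against 601 CPM per kb, so that by the medians Acta2 stood well above it in the high class and less so in the low class. In D+1 IR 20 and D+1 IR 3 of the low class Actb was above Acta2. Before division by length they had 3447 and 1378 CPM of Actb against 1510 and 698 CPM of Acta2. Actg1, the other cytoplasmic actin, was at 207 against 122 CPM per kb, and enteric smooth muscle actin Actg2 at 146 against 32.1. The skeletal and cardiac actins were low, Acta1 at 7.26 against 4.66 and Actc1 at 4.89 against 3.29 CPM per kb. Of these 5 actins, Actg2 (log2 difference 1.85) and Actg1 (0.94) lay without overlap, and near-identical coding sequences may lead reads of actins to be dropped.

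Genes that went against Acta2 included some of lipid and amino acid metabolism. Lipe, hormone-sensitive lipase (chr7:25379527-25398710), ran from 27.9 to 361 CPM (median 275) in the high class and from 414 to 1094 (median 886) in the low class, a difference of -2.03. Glul, glutamine synthetase (chr1:153899944-153909723), ran from 161 to 833 CPM (median 676) against 1093 to 3645 (median 2532), a difference of -1.97. The 12 largest differences in this direction were those of Acaa1b (-2.45), a peroxisomal thiolase, Tmem37 (-2.40), Lipe, Glul, Ctcflos (-1.90), Plbd1 (-1.86), Arxes1 (-1.78), an adipocyte gene, Oplah (-1.75), Rbm47 (-1.75), Pfkfb1 (-1.73), Aldh1l1 (-1.71) and Dgat1 (-1.66), the last step of triglyceride synthesis. Within the 16 libraries of number 61, 10 of the 12 still lay without overlap, all but Ctcflos and Aldh1l1. Control 6, the library with the most Acta2, had the lowest value of the high class for Lipe and Glul, and without it the rest of the class had 175 to 361 CPM of Lipe and 513 to 833 of Glul, still under the low class, while the difference of Aldh1l1 was -1.10.

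Marker lists of fat moved with these genes. All 18 white adipocyte markers were lower in the high class (median -1.70, and -1.11 without control 6), though only Lipe was without overlap. Their summed level was 2153 to 31354 CPM in the high class (median 21295) and 23555 to 76279 in the low class (median 58299), and only D+1 IR 20 of the low class, at 23555, had a sum within the high range. Brown adipocyte markers had 14 of 15 genes lower (median -2.06), with sums of 360 to 3736 CPM against 1940 to 9377, and Ucp1, the uncoupling protein of brown fat, differed by -2.25. The 20 nuclear-encoded respiratory chain genes were all lower (median -1.20), with none without overlap, and mitochondrial transcripts took 4.50% to 12.4% of counts against 4.49% to 22.9%. None of these markers was at 0 in all libraries of both classes, and the part of fat in the differences of smooth muscle genes was not tested.

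**Figure D5:**
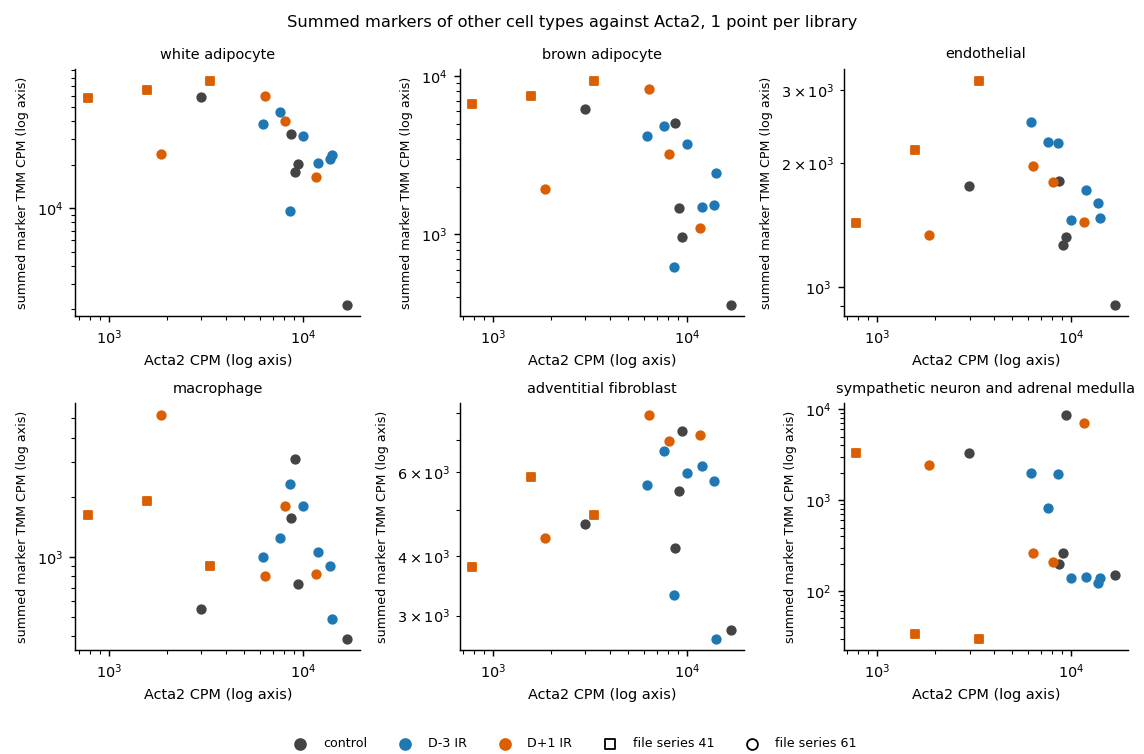
Summed TMM CPM of marker lists of other cell types against Acta2 CPM (both axes log), 1 point for each of the 19 libraries. White adipocyte sums are 2153 to 31354 in the high class and 23555 to 76279 in the low class, while fibroblast sums overlap.

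Other cell types differed less or in single libraries. Endothelial markers were lower in the high class in 16 of 18 genes (median -0.61), with sums of 905 to 1719 CPM against 1338 to 3170, and 2 lay without overlap: Robo4, a guidance receptor of endothelium, with a median of 15.1 CPM (at most 20.7) against 36.9, and Cldn5, a tight junction protein, from 36.2 to 59.9 against 74.6 to 133. Macrophage markers were lower in 18 of 20 genes (median -0.53), with sums of 387 to 1820 CPM against 544 to 5229, the highest in D+1 IR 20, without which the median was -0.30. T and NK cell (median -1.11) and B cell (-1.27) markers were lower in every measured gene, with none without overlap. D+1 IR 3 had a B cell sum of 870 CPM and a T and NK cell sum of 175 CPM, against at most 118 and 44.6 in the rest of the low class. Without it the medians were -0.66 for T and NK cell and -0.50 for B cell markers, and in the 16 libraries of number 61 they were -0.57 and -0.38. Adventitial fibroblast markers were not apart, with 15 of 17 genes above 0 (median 0.22), sums of 2682 to 7191 CPM against 3790 to 5851, and a median of 0.01 without D+1 IR 3 and of -0.34 in the 16 libraries of number 61. Pericyte genes split, with Cspg4 (NG2), a proteoglycan of mural cells, higher by 1.71 and Vtn (-1.60) and Higd1b (-1.29) lower, all without overlap. Markers of nerve and adrenal medulla were lower in 16 of 17 genes (median -2.80), but their sums overlapped widely, 123 to 7105 CPM against 29.9 to 3344, and the median was -4.22 without D+1 IR 17. Erythroid markers were higher in 12 of 13 genes (median 1.41, sums of 522 to 10771 against 301 to 4982 CPM), with none without overlap. Centred within irradiation groups the erythroid median was 0.10, and in the 16 libraries of number 61 it was 1.63. In the edgeR fit 11 of 13 genes had an unadjusted p under 0.05 in each comparison of D+1 IR, with 0 called after adjustment. Of all 17617 genes, 1253 were under 0.05 for D+1 IR against control and 2018 for D-3 IR against D+1 IR. None of the markers of these lists was at 0 in all libraries of both classes, and their part in the smooth muscle values was not tested.

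Genes of the modulated, less contractile state of smooth muscle did not go against Acta2. In that list 14 of 15 genes were above 0 with a median of 1.14, and Fn1 and Tnc (tenascin C) lay without overlap. The median was 1.79 without D+1 IR 20 and 0.79 without D+1 IR 3. In the 16 libraries of number 61 it was 0.54, with none without overlap there. The 18 genes of cell division were also all above 0 (median 1.04), with none without overlap, and their median was 0.32 centred within irradiation groups, 0.54 in the 16 libraries and 0.66 without D+1 IR 2. Of 16 p53 targets, which respond to irradiation, 10 were above 0 (median 0.14, and -0.02 in the 16 libraries), and Perp (1.94) and Mdm2 were without overlap. Among 20 inflammatory mediators (median 0.37) only Ptgs2, the inducible cyclooxygenase, was separate, at 20.6 to 80.4 CPM against 1.90 to 9.16. This share of 5% was near the 6.13% of all genes. The medians of the remaining lists were 0.53 for immediate early genes, 0.28 for matrix metalloproteinases and their inhibitors, 0.11 for neutrophil, -0.19 for skeletal muscle, -0.47 for Schwann cell, -0.51 for mesothelial and -1.45 for adrenal cortex markers.

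The 7 libraries between the classes, which the ranking by Acta2 placed there and the class comparison left out, were read for the same order. Their Acta2 ran only from 6359 to 9432 CPM. Their order depended on scaling: control 8 was first of them on plain CPM but behind control 5 and control 9 with TMM scaling. Of the 1080 higher genes, 790 (73.1%) had a positive rho with Acta2 in these 7 libraries, with a median of 0.21, against 53.7% and 0.07 for all genes. Of the 339 lower genes, 38 (11.2%) had a positive rho, with a median of -0.54. The smooth muscle lists were not alike there: the median rho was 0.39 for the contractile list, 0.14 for elastic fibre, 0.07 for Z-disc and for integrins, 0 for basement membrane, -0.07 for channels, and -0.21 for transcription regulators, for cGMP signalling and for the dystrophin complex, so that most were at or below the value of all genes. White adipocyte (-0.70), brown adipocyte (-0.71) and respiratory chain (-0.71) lists were further from 0. These values rest on few libraries of 1 tissue, are not an independent check of the classes, and are given as a description.

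Between D-3 IR and D+1 IR, whose libraries fill most of the high and the low class, 18 of the 24 contractile genes had an unadjusted p under 0.05 in the edgeR fit, beside 2018 of all 17617 genes, and none passed after adjustment. D+1 IR against control had 11 of 24 and D-3 IR against control 0 of 24, beside 1253 and 232 of all genes. With the library number as a term in the fit, 0 genes were called and 603 had an unadjusted p under 0.05 between D-3 IR and D+1 IR. Irradiation group and library number cannot be told apart for the 3 D+1 IR libraries that carry 41.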

How the data were processed

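Abdominal aorta RNA was sequenced from 19 mice. Per the labels and methods, poly(A) RNA was made into libraries with the TruSeq Stranded kit, and the authors checked reads with FastQC and aligned them to GRCm38 with STAR 2.7.9a. The deposited values are raw counts of reads per gene, with an unstranded column and 1 column per strand. The unstranded counts were used, and the strand columns only where named. Of 55414 gene IDs 52081 matched a symbol, and positions are those of GENCODE M21.

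Classes are the 6 highest and 6 lowest libraries by Acta2 CPM. Other genes were compared as mean log2 TMM CPM (edgeR 4.0.16, R 4.3.3). Groups were tested with the edgeR quasi-likelihood test on 17617 genes that passed its filter on low counts, and Acta2 CPM with an exact permutation test (scipy 1.17.1). Scripts were tested on simulated data. Depth was 25839001 to 97083681 counts (median 39641963), and the mice varied more (biological coefficient of variation 0.591) than counting error would give.

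Named genes were Acta2, Myh11 and Des, the 12 largest differences without overlap in each direction with a class mean of at least 10 CPM, the 10 highest rho, the actins, and per list the up to 5 members with the largest difference plus members whose role explains the list. Some genes that this rule names are not reported here. The classes, members and gene lists were chosen with earlier results of these data known. Alternatives were other scalings, filters, prior counts, class sizes, leaving out each library, the 16 libraries of number 61, DESeq2 1.42.0 and a Myh11 ranking. The Myh11 ranking, the comparison with 3 low libraries and that without libraries rich in nerve or adrenal RNA, like the looser CArG search and the added strand columns, were chosen after seeing the data.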

Additional observations from a re-analysis of the deposited data

Results flagged for a closer look

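In all, 113 sets of values were examined for a library far from the others, and 20 were marked by Dixon's criterion. Most sets were within the classes of 6 libraries, and the rest were Acta2, Myh11 and Des within irradiation groups. Chance marks about 1 in 20 separate sets, but these sets share libraries.

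Control 6, the library with the most Acta2, lay below the other high libraries in 12 of the 20: Acaa1b (1.35 CPM against 8.17 to 18.9), Lipe (27.9 against 175 to 361), Glul (161 against 513 to 833), Ctcflos (0.546 against 3.17 to 7.15), Plbd1 (5.76 against 30.5 to 59.2), Arxes1 (0.750 against 4.73 to 8.31), Oplah (14.0 against 49.9 to 68.9), Rbm47 (1.82 against 11.5 to 17.5), Pfkfb1 (1.19 against 8.56 to 15.4), Aldh1l1 (3.72 against 26.8 to 73.5), the endothelial marker sum (905 against 1440 to 1719) and the white adipocyte marker sum (2153 against 16513 to 31354). In the high class Hspa1b reached 2678 CPM in D+1 IR 17 (70.3 to 233 in the others), where the sum of sympathetic neuron and adrenal medulla markers was 7105 (123 to 150.1), and Nptx2 reached 25.6 in D-3 IR 11 (14.8 to 17.1).

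In the low class, D+1 IR 3 was at 0 CPM for Ereg (0.854 to 4.75 in the others) and at 0 for Bdnf (1.63 to 6.41), and its adrenal cortex sum was 117 (3.50 to 5.21). D+1 IR 20 had a neutrophil sum of 116 CPM (14.1 to 21.1) and a mesothelial sum of 27.3 (4.72 to 8.81).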

How the results depend on the processing

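The higher Acta2 of D-3 IR than of D+1 IR (1.58) no longer passed with TMM scaling (1.60, adjusted p = 0.0524), on linear CPM (5557 CPM, adjusted p = 0.0507) or without D+1 IR 1, 2 and 3 (0.79, adjusted p = 0.491), all by exact permutation. Leaving out 1 library gave 1.23 to 1.88 (exact permutation, adjusted p 0.0175 to 0.0944), with 11 libraries whose loss ended the call. The difference of D-3 IR from control turned to -0.092 without control 4 (range -0.092 to 0.54). DESeq2 called 10 genes between the irradiated groups, 2 between D+1 IR and control, and 0 between D-3 IR and control, where edgeR called 0 each time. No paired analysis was possible because the replicate numbers in the labels run through the series and none is shared between groups.

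The 1080 higher and 339 lower genes became 837 and 650 with total-count CPM, 2151 and 1089 with 5 against 5 libraries, 278 and 158 within the 16 libraries of number 61, and 3425 and 3908 without 5 libraries rich in nerve or adrenal RNA (5 against 2 libraries). Fewer libraries per class make a lack of overlap easier by construction. Leaving out 1 library gave 1088 to 1890 (most without D-3 IR 14) and 351 to 1107 (most without D+1 IR 20). Lower genes also passed 1.5 times the count without D-3 IR 14 (866), D+1 IR 17 (670) and D-3 IR 12 (511). A ranking by Myh11 gave 779 and 313, of which 300 (27.8% of the 1080) and 87 (25.7% of the 339) were shared. The contractile median of 1.84 was 1.22 centred within groups, 1.16 in the 16 libraries, and 1.62 to 2.04 without 1 library. In leave-one-out, 31 of 35 list medians and 36 of 36 named genes kept their sign, the exceptions being contractile receptors, neutrophil, skeletal muscle and mesothelial markers.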
